A study of Mus musculus with 9 samples.

Results

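The cytochrome P450 genes described here were every gene whose symbol begins with Cyp and a digit, except symbols starting with Cyp2a or Cyp4a and Cyp4b1, Cyp24a1, Cyp27b1, Cyp26b1 and Cyp51. Of 105 such symbols in the kidney tables, 18 were left out and 87 remained, among 23282 symbols in all. The rule goes by names and uses no measured value, but it was set with earlier results of these data known. Of these 87 genes, 34 were expressed highly enough to be tested, that is, their normalized read count was at least 10 in at least 4 of the 9 libraries.

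Kidney RNA of C57BL/6 mice was profiled in 5 libraries from Bmal1 -/- mice (KO) and 4 libraries from wild-type mice (WT). Bmal1, listed under the symbol Arntl, is the transcription factor that pairs with Clock to drive the circadian clock. The genotype label names no promoter or cell type that would restrict the loss of Bmal1. Sex, age, the hour of sampling, the deleted exons and whether each library came from its own animal are absent from the labels used here. The p-values therefore measure only how far these libraries differ among themselves, which may be technical.

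Cytochrome P450 enzymes are haem proteins that insert oxygen into fatty acids, steroids, sterols, vitamins and foreign compounds. Most sit in the endoplasmic reticulum and take electrons from P450 oxidoreductase, while a few, such as Cyp27a1, sit in mitochondria and take them from ferredoxin. In the kidney they are best known for turning arachidonic acid into epoxides and hydroxylated products that act on vessels and on tubular salt transport.

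Libraries were made with a kit that reads near the poly(A) end, so levels of different genes can be set side by side without division by transcript length. The deposited values are log2(x + 1), where x is a normalized read count. How it was normalized was not given in the sources used here, and the raw depth is unknown. The summed x lay between 11765200 and 12936900 in KO and between 12407300 and 13486400 in WT. The ribosomal precursor Rn45s took 6.83% to 14.4% of x in KO and 5.07% to 11.3% in WT, and 5 globin genes took 0.848% to 3.36% in KO and 0.585% to 1.46% in WT. WT library 2 stood apart on the second principal component, and KO library 4 had the highest Rn45s share. Arntl read between 5.65 and 5.99 log2 in KO and between 6.26 and 7.06 log2 in WT, but a tag near the transcript end may lie outside the deleted part and then checks nothing.

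Of the 34 tested P450 genes, 12 (35.3%) changed between genotypes at an adjusted p under 0.05 (limma, Benjamini-Hochberg over 13481 genes), where 14.4% of all tested genes did. Of the 34, 6 were higher in KO (17.6%, against 6.16% of all genes) and 6 were lower in KO (17.6%, against 8.20% of all genes). Cyp2c55, among the 6 higher, passed the filter only through KO libraries. KO and WT libraries did not overlap for 9 of the 34 (26.5%), where 14.3% of all tested genes did not overlap. The median log2 fold change, KO minus WT, was 0.15 over the 34 and 0.0002 over all tested genes. The balance of higher and lower calls over all genes depended on scaling: 42.9% of the calls were higher in KO with the deposited values, 58.1% with upper-quartile scaling, 56.8% when scaled to the library total and 64.7% when Rn45s was taken out of that total. The P450 split was 6 higher and 6 lower with the first 3 of these and 7 higher and 6 lower with the last, which moved the median of all genes by 0.105 log2.

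**Figure D1:**
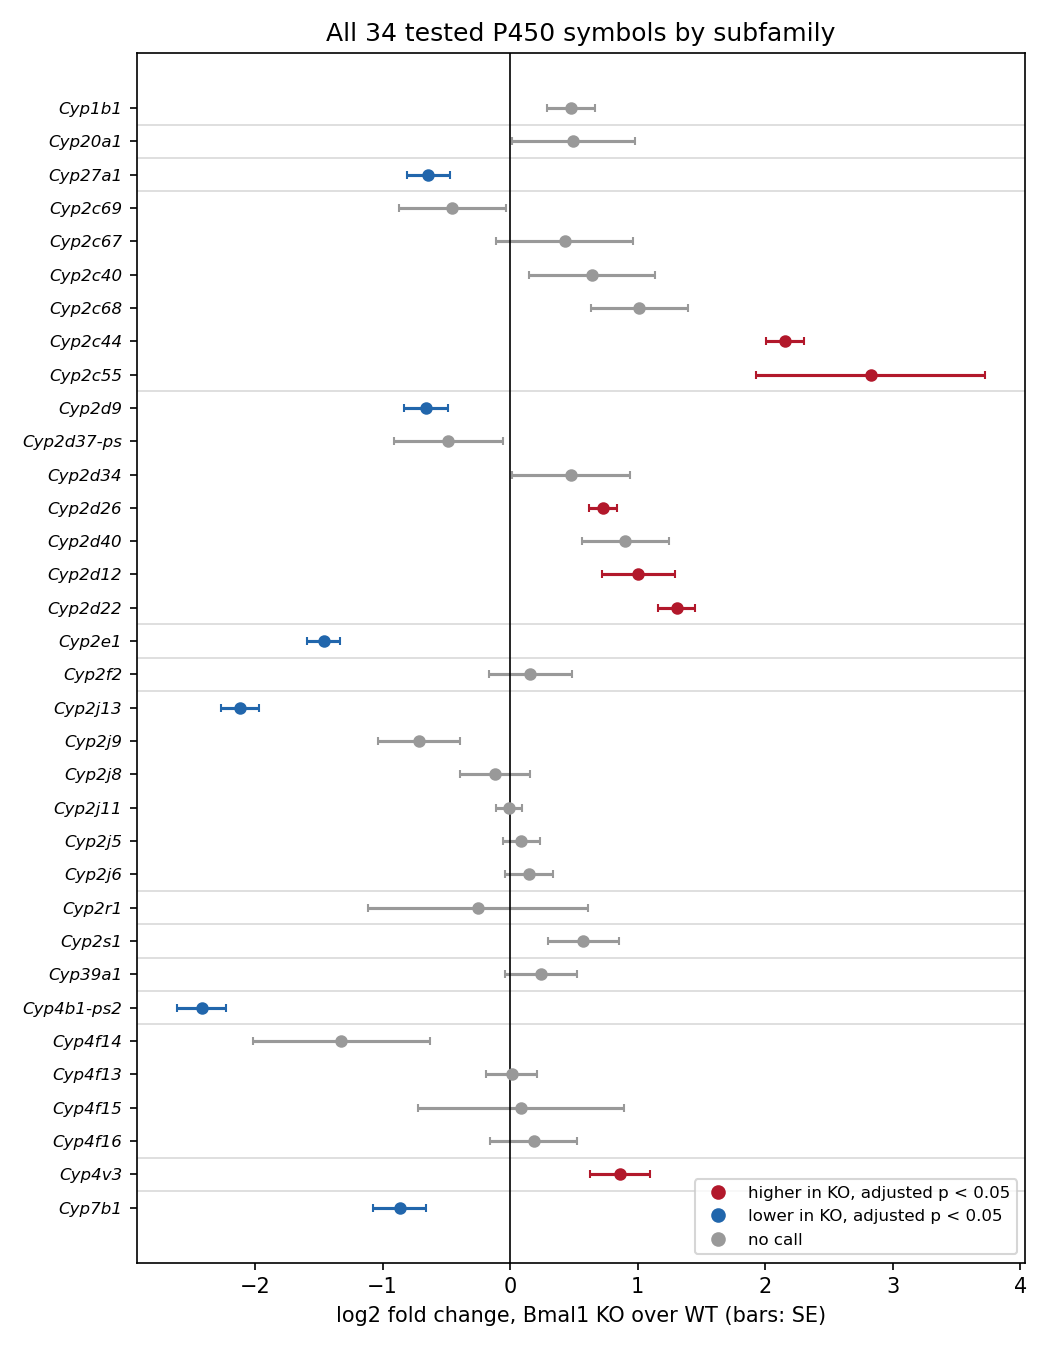
Log2 fold change, KO over WT, of the 34 tested P450 genes with its standard error (limma, 5 KO and 4 WT libraries), ordered by subfamily. Points past the threshold run from Cyp2c55 at 2.83 to Cyp4b1-ps2 at -2.42, with 6 genes on either side of 0.

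The summed level of all 87 genes averaged 52750 ± 6369 x in KO and 62972 ± 3197 x in WT (SD, n = 5 and n = 4). Cyp2j5, an arachidonic acid epoxygenase, held 61.8% to 75.7% of that sum in KO and 51.5% to 53.7% in WT. Without Cyp2j5 the sum was 21024, 14188, 17698, 16379 and 16580 x in KO and 31847, 27581, 30105 and 30135 x in WT, with no overlap between the genotypes. Cyp2e1 held 4.93% to 9.38% of the sum in KO and 16.8% to 18.2% in WT, and Cyp2j13 held 1.74% to 2.36% in KO and 6.11% to 8.30% in WT. Cyp2c44 held 2.33% to 3.62% in KO and 0.497% to 0.623% in WT. The pseudogene Cyp4b1-ps2 held 1.06% to 2.37% in KO and 5.80% to 7.85% in WT. Its reads may not be separable from those of Cyp4b1, which is not among the 87. These sums follow from the changes of their largest members and were not tested. In whole-tissue RNA, fewer cells of a type and less RNA per cell cannot be told apart.

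**Figure D2:**
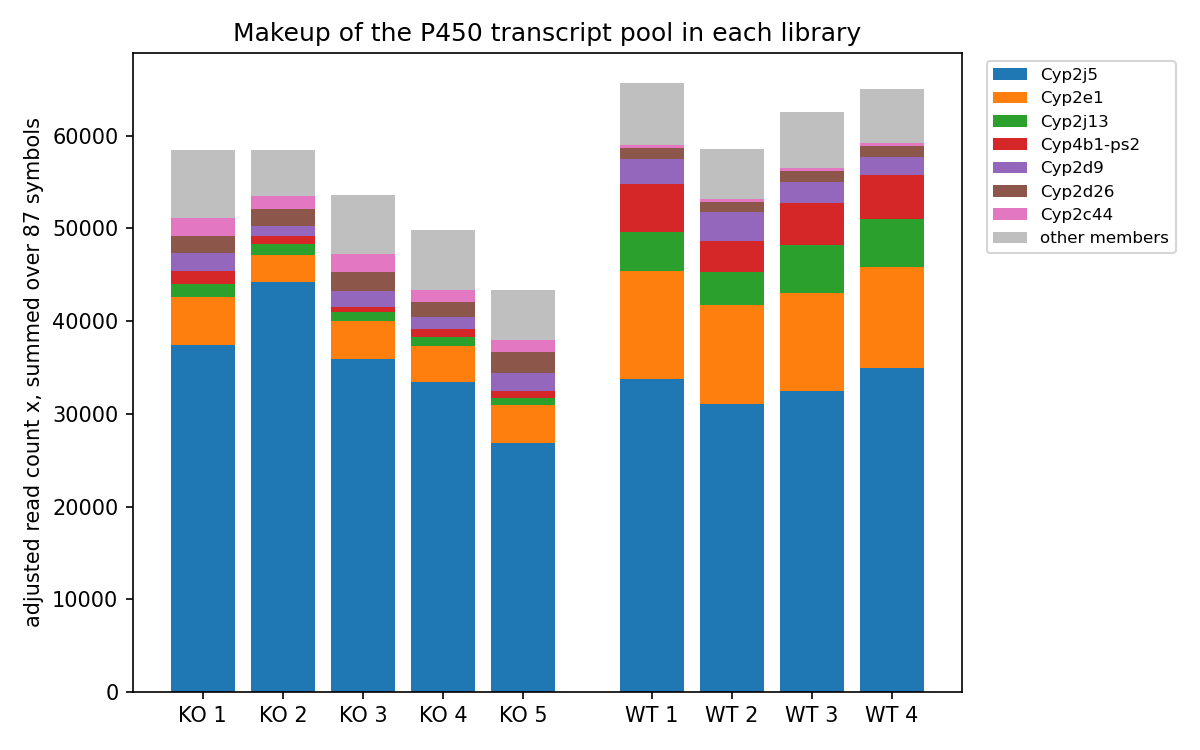
Summed normalized read count x of the 87 P450 genes in each library, KO left and WT right, split by the genes that hold most of it. Cyp2j5 is the largest segment in all 9 libraries, and the segment for Cyp2e1 is smaller in each KO library than in each WT library.

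The epoxygenase families Cyp2j and Cyp2c turn arachidonic acid into epoxyeicosatrienoic acids. Within the Cyp2j cluster of chromosome 4, 6 of 7 genes were tested, 1 fell (16.7% called, against 14.4% of all tested genes) and none rose. The first bases around the start of 3 of them are printed because they stand for the gene that fell, the most abundant one and the one with CACGTG. The sequences run 5′ to 3′ along the gene, from RefSeq on GRCm38.p6, and cover 250 bases before to 50 after the start. All 3 genes lie on the minus strand: Cyp2j13 at chr4:96077491-96077790, Cyp2j5 at chr4:96664070-96664369 and Cyp2j6 at chr4:96553602-96553901. Capitals mark a searched motif on either strand, which is GCGTG in Cyp2j13, AGGTCA in Cyp2j5 and CACGTG in Cyp2j6.
Cyp2j13: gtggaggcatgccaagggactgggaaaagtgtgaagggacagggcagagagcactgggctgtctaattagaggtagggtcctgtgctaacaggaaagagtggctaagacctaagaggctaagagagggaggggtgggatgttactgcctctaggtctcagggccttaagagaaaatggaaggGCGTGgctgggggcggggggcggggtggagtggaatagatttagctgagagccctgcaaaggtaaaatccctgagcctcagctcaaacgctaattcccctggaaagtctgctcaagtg
Cyp2j5: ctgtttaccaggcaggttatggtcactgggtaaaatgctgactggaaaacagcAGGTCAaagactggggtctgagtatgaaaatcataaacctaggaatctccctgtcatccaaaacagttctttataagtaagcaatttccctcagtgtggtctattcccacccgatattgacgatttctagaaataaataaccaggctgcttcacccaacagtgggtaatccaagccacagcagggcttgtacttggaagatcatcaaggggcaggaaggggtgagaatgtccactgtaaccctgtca
Cyp2j6: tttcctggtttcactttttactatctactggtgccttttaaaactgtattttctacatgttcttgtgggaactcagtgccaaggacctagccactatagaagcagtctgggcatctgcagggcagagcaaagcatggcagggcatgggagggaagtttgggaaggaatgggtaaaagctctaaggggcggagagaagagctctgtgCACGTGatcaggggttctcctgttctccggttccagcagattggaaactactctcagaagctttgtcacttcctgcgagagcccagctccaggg
In a global alignment, with gap columns counted in the total, the Cyp2j13 and Cyp2j5 promoters were identical at 47.7% of the columns and those of Cyp2j6 and Cyp2j5 at 44.3%.

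Cyp2j13, a gene of male-biased expression in mouse kidney (chr4:96027534-96077546, minus strand, GRCm38), read 10.43, 10.21, 9.87, 9.92 and 9.67 log2 in KO and 12.06, 11.81, 12.34 and 12.33 log2 in WT. All KO libraries lay more than 1 log2 unit below the lowest WT library. Its mean was 1055.7 ± 226.6 x in KO and 4549.3 ± 773.7 x in WT (SD), 4.33-fold lower in KO (log2 fold change -2.12, SE 0.15, adjusted p = 1.64e-08, limma). Cyp2j5 (chr4:96628773-96664154, minus strand), the most abundant of the 87 genes, read 15.19, 15.43, 15.13, 15.03 and 14.71 log2 in KO and 15.05, 14.92, 14.99 and 15.09 log2 in WT. The genotypes overlapped, and the log2 fold change was 0.09 (SE 0.14, adjusted p = 0.741, limma). The remaining tested genes of the cluster also missed the threshold: Cyp2j11 at -0.01, Cyp2j6 at 0.15, Cyp2j8 at -0.12 and Cyp2j9 at -0.72 log2, with adjusted p values of 0.958, 0.660, 0.834 and 0.154 (limma). The seventh, Cyp2j12, stayed at or under 2.8 x.

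Among the 16 Cyp2c genes 6 were tested, 2 rose (33.3%, against 6.16% of all tested genes) and none fell. Of the 2, Cyp2c55 passed the filter only through KO libraries. Cyp2c44, an arachidonic acid epoxygenase of the kidney that RefSeq lists as Cyp2c23 (chr19:44005022-44029208, minus strand), read 10.97, 10.41, 10.92, 10.32 and 10.32 log2 in KO and 8.68, 8.37, 8.35 and 8.34 log2 in WT. The genotypes did not overlap, and KO libraries 1 and 3 were the highest. Its mean was 1572.2 ± 368.7 x in KO and 347.3 ± 41.4 x in WT (SD), which is 4.44-fold higher in KO (log2 fold change 2.15, SE 0.15, adjusted p = 1.38e-08, limma).

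Cyp2c55, which acts on arachidonic and linoleic acid (chr19:39007019-39042693, plus strand), was a low-level gene, at 3.80, 0.86, 3.71, 4.64 and 4.13 log2 in KO and 0.24, 0.09, 0.00 and 2.07 log2 in WT. KO library 2 lay below WT library 4, so the genotypes overlapped. Only KO libraries 1, 3, 4 and 5 reached 10 x, so the gene entered the test through KO alone. The log2 fold change was 2.83 (SE 0.90, adjusted p = 0.0418, limma) and was imprecise. It was 1.497 with a pseudocount of 5, where Cyp2c44 stood at 2.139, and 3.467 without KO library 2. The call was lost without KO library 1 (0.0871), 3 (0.0937), 4 (0.127) or 5 (0.104) and without WT library 1 (0.0843), 2 (0.0543) or 3 (0.0847), as adjusted p in limma. The call was also lost with the replicate block (0.0927), quantile normalization (0.121) and the Rn45s share as a covariate (0.128). Over all alternatives tried, the adjusted p lay between 0.00913 and 0.134.

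The summed Cyp2c level was 1377 to 2150 x in KO and 378 to 479 x in WT, and without Cyp2c44 it was 60.8 to 180.3 x in KO and 51.8 to 98.2 x in WT. Cyp2c68 had a log2 fold change of 1.01 (adjusted p = 0.0866, limma), Cyp2c40 of 0.64, Cyp2c67 of 0.43 and Cyp2c69 of -0.45, none past the threshold. Transcript ends of these 4 resemble other genes. Distinct 50-base stretches were taken from the last 300 bases and pooled over a gene's annotated transcripts. Of these, 57.9% in Cyp2c40, 45.4% in Cyp2c67, 32.3% in Cyp2c68 and 23.1% in Cyp2c69 also occur, as exact matches, in another gene's transcript. The labels used here do not say how reads shared between genes were assigned, so their values are uncertain. Cyp2c44, Cyp2c55, Cyp2j13 and Cyp2j5 share no such stretch.

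**Figure D3:**
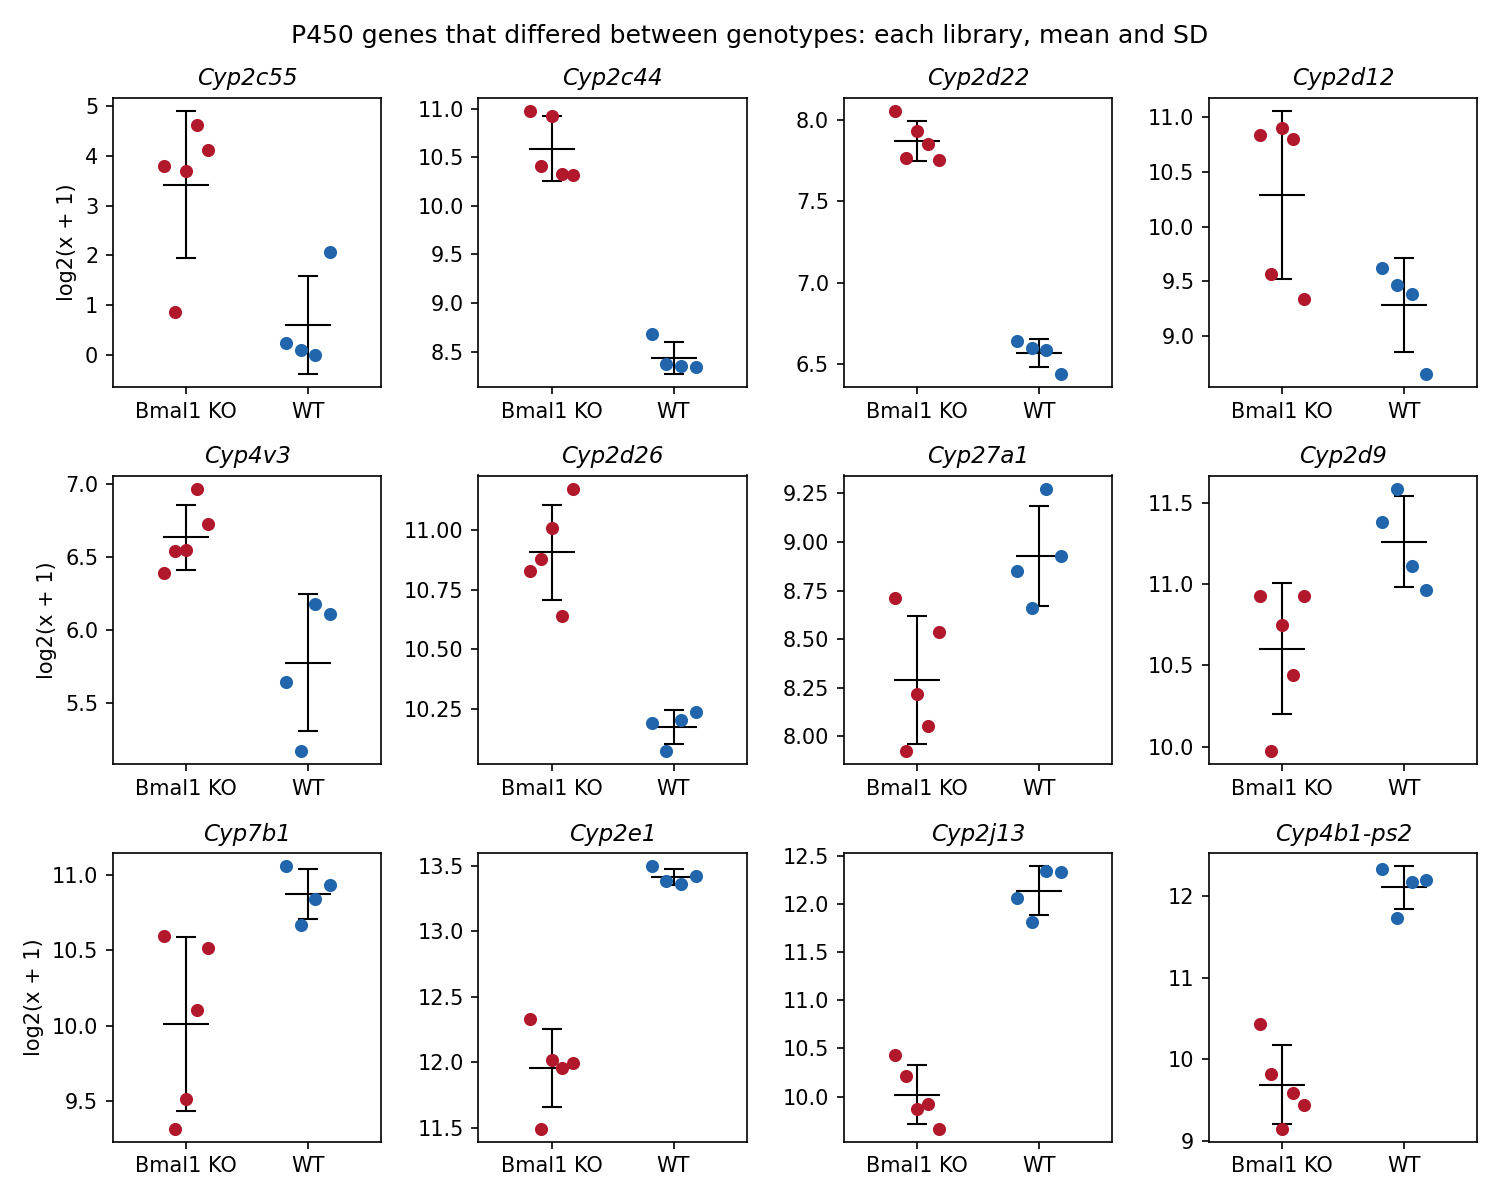
Deposited log2(x + 1) of the 12 changed P450 genes, 1 point per library, KO left and WT right, with the group mean and SD. Libraries of the 2 genotypes overlap for Cyp2c55, Cyp2d12 and Cyp27a1 and are apart for the other 9.

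The Cyp2d cluster of chromosome 15, whose enzymes hydroxylate steroids and many drugs, had changes in both directions. Of 10 genes 7 were tested, 3 rose (42.9%, against 6.16% of all tested genes) and 1 fell (14.3%, against 8.20%). Of the changed genes, Cyp2d26 (rose) and Cyp2d9 (fell) had a RefSeq start, and both promoters are printed because these genes moved in opposite directions. They are given as above, with Cyp2d26 at chr15:82794196-82794495 on the minus strand and Cyp2d9 at chr15:82452127-82452426 on the plus strand.
Cyp2d26: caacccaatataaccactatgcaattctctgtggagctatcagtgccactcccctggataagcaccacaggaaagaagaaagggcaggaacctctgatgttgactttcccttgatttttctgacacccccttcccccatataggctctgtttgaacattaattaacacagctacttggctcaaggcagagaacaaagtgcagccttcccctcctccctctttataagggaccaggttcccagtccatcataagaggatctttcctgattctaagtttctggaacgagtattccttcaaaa
Cyp2d9: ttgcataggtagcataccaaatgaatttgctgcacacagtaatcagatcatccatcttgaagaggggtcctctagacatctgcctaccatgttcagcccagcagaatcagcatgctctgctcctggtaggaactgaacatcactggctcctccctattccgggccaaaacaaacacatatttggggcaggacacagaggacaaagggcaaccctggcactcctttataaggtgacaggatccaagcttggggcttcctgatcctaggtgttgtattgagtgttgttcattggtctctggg
No searched motif occurs in either window, so neither holds capitals. The 2 windows were identical at 50.4% of alignment columns, gaps included, whereas Cyp2d9 and Cyp2d11 were identical at 84.5% and Cyp2d9 and Cyp2d10 at 82.9%.

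Cyp2d22 (chr15:82370527-82380260, minus strand) read 8.06, 7.77, 7.93, 7.85 and 7.75 log2 in KO and 6.64, 6.60, 6.59 and 6.44 log2 in WT. Both genotypes were tight and far apart. Its mean was 234.0 ± 20.8 x in KO and 93.9 ± 5.6 x in WT (SD), 2.47-fold higher in KO (log2 fold change 1.31, SE 0.15, adjusted p = 7.14e-06, limma). Cyp2d26 (chr15:82790101-82794294, minus strand) read 10.83, 10.88, 11.01, 10.64 and 11.17 log2 in KO and 10.19, 10.07, 10.20 and 10.24 log2 in WT. The genotypes did not overlap, and the log2 fold change was 0.73 (SE 0.11, adjusted p = 1.86e-04, limma), from means of 1932.6 ± 268.0 x in KO and 1157.9 ± 56.1 x in WT (SD).

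Cyp2d12 (chr15:82555072-82560403, plus strand) read 10.83, 9.57, 10.90, 10.80 and 9.34 log2 in KO and 9.62, 9.47, 9.39 and 8.66 log2 in WT. KO libraries 1, 3 and 4 lay above every WT library, and KO libraries 2 and 5 lay within the WT range. The log2 fold change was 1.01 (SE 0.29, adjusted p = 0.0248, limma). Leaving out KO library 1 (0.0549), KO library 3 (0.0710), KO library 4 (0.0722) or WT library 4 (0.0940) ended this call, as adjusted p in limma, and over all alternatives it lay between 0.00321 and 0.128.

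Cyp2d9, a testosterone hydroxylase of mouse liver with higher levels in males (chr15:82433437-82456845, plus strand), was the 1 gene of the cluster that fell. It read 10.92, 9.97, 10.75, 10.44 and 10.93 log2 in KO and 11.38, 11.59, 11.11 and 10.96 log2 in WT. The groups came close, with KO library 5 at 10.93 and WT library 4 at 10.96 log2, but did not overlap. The log2 fold change was -0.66 (SE 0.17, adjusted p = 0.0155, limma), from means of 1600.0 ± 403.4 x in KO and 2487.7 ± 482.3 x in WT (SD). With the Rn45s share as a covariate the adjusted p was 0.0852, and without the mean-variance trend it was 0.0921. The summed Cyp2d level, with rises and a fall in it, was 3927 to 6027 x in KO and 3743 to 5030 x in WT and overlapped. Cyp2d40 (0.90, adjusted p = 0.0900, limma), Cyp2d34 (0.48) and Cyp2d37-ps (-0.48 log2) missed the threshold. Of the 50-base stretches pooled over annotated transcript ends, 12.1% in Cyp2d22, 12.9% in Cyp2d9, 9.17% in Cyp2d12 and 8.90% in Cyp2d26 were shared with other genes. Only exact matches were counted, so low shares do not show that reads of these genes are separable. Cyp2d9 also overlaps the miRNA gene Gm27622 and the pseudogene Gm46501 on its own strand, and Cyp2d12 the miRNA gene Gm27924.

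Cyp2e1, which oxidizes ethanol, acetone and other small molecules (chr7:140763739-140774987, plus strand), was the second most abundant of the 87 in WT. It read 12.33, 11.49, 12.02, 11.95 and 11.99 log2 in KO and 13.50, 13.38, 13.36 and 13.43 log2 in WT. The highest KO library lay about 1 log2 unit below the lowest WT library. Mean levels were 4038.8 ± 802.3 x in KO and 10943.9 ± 466.7 x in WT (SD), 2.75-fold lower in KO (log2 fold change -1.46, SE 0.13, adjusted p = 3.62e-07, limma). Of the 50-base stretches pooled over the ends of its 4 annotated transcripts, 11.4% also occur in other genes. Which of these ends the reads came from is unknown here.

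In the Cyp4 family, whose enzymes hydroxylate the far end of fatty acids and eicosanoids, Cyp4b1-ps2 fell and Cyp4v3 rose. The pseudogene Cyp4b1-ps2 (chr4:115582286-115583144, minus strand) read 10.44, 9.82, 9.15, 9.59 and 9.44 log2 in KO and 12.33, 11.73, 12.17 and 12.20 log2 in WT. The genotypes were more than 1 log2 unit apart, and its log2 fold change of -2.42 (SE 0.19, adjusted p = 8.35e-08, limma) was the largest fall among the 34. Its parent Cyp4b1, not among the 87, lies nearby (chr4:115624725-115647723, minus strand) and changed by -2.20 log2 (SE 0.15, adjusted p = 1.02e-08, limma). As 38.6% of the 50-base stretches in the pseudogene's transcript end also occur in Cyp4b1, its reads and those of Cyp4b1 may not be separable.

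Cyp4v3, a fatty acid hydroxylase (chr8:45304944-45333216, minus strand), read 6.39, 6.54, 6.55, 6.97 and 6.73 log2 in KO and 5.64, 5.17, 6.18 and 6.11 log2 in WT. The genotypes did not overlap, though KO library 1 and WT library 3 were close. The log2 fold change was 0.86 (SE 0.24, adjusted p = 0.0196, limma), and the call was lost without KO library 4 (0.0542) or WT library 1 (0.0515), with a range of 0.0107 to 0.0983 over the alternatives. Its exons overlap those of Gm45753 on the same strand, so reads of the 2 genes may not be separable. The promoter of Cyp4v3 (chr8:45333114-45333413, minus strand) is printed for the sequence CACGTG, the E-box that Bmal1 and Clock bind. Of the 7 changed genes whose RefSeq start was found by symbol, it alone holds CACGTG. Cyp2c44 was not looked up under its RefSeq name and is not among the 7.
Cyp4v3: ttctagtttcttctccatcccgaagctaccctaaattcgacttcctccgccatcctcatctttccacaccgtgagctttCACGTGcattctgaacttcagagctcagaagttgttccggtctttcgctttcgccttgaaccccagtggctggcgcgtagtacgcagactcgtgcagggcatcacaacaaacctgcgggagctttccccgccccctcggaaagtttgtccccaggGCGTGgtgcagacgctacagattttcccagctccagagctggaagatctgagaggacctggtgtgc
The capitals mark CACGTG, which starts 171 bases before the start, and GCGTG on either strand, which starts 16 bases before it.

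The Cyp4f genes, which hydroxylate leukotrienes and other eicosanoids, showed no call among the 4 tested of 10 (limma), and 0 at an unadjusted p under 0.05. Over all tested genes, 14.4% had a call, and the share at an unadjusted p under 0.05 was not counted. Cyp4f14 read 3.69, 1.45, 2.82, 1.78 and 2.74 log2 in KO and 5.28, 2.09, 3.67 and 4.22 log2 in WT, with a log2 fold change of -1.32 and a wide error (SE 0.69, adjusted p = 0.230, limma). Cyp4f13, Cyp4f15 and Cyp4f16 had log2 fold changes of 0.01, 0.09 and 0.19.

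Of the tested P450s that act on sterols, both Cyp7b1 and Cyp27a1 fell, and Cyp39a1 had no call. Cyp27a1 starts side-chain oxidation of sterols in mitochondria, and Cyp7b1 and Cyp39a1 hydroxylate oxysterols. Cyp7b1 (chr3:18071950-18243338, minus strand) read 10.60, 9.32, 9.52, 10.10 and 10.52 log2 in KO and 11.06, 10.67, 10.84 and 10.94 log2 in WT. KO was below WT without overlap, but the KO libraries spread over more than 1 log2 unit. Means were 1095.6 ± 413.3 x in KO and 1887.4 ± 212.9 x in WT (SD), and the log2 fold change was -0.87 (SE 0.21, adjusted p = 0.00890, limma). With the Rn45s share as a covariate the adjusted p was 0.109, and without limma's mean-variance trend it was 0.0759.

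Cyp27a1 (chr1:74713574-74737892, plus strand) read 8.71, 7.92, 8.22, 8.05 and 8.53 log2 in KO and 8.85, 8.66, 9.28 and 8.93 log2 in WT. KO library 1 lay above WT library 2, and the others were apart. The log2 fold change was -0.64 (SE 0.17, adjusted p = 0.0144, limma), and the call was lost without WT library 3 (adjusted p = 0.0588). With the Rn45s share as a covariate it was -0.40 log2 (adjusted p = 0.157), and without the mean-variance trend the adjusted p was 0.0657, within a range of 0.00465 to 0.157 over the alternatives. Cyp39a1 stood at 0.24 log2 (SE 0.28, adjusted p = 0.624, limma). Cyp7a1, the rate-limiting enzyme of the liver route to bile acids, was listed at 0 in all 9 libraries, and Cyp8b1 reached at most 4.0 x.

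Among 12 non-P450 genes of oxysterol and bile acid handling 11 were tested, 2 rose and 3 fell, and their median log2 fold change was -0.05. Over all tested genes, 6.16% rose and 8.20% fell. Amacr, the racemase of branched-chain acids, fell by 1.18 on the log2 scale (SE 0.11, adjusted p = 3.35e-07, limma), and Slc27a2 and Scp2, of peroxisomal fatty acid activation and side-chain cleavage, fell by 0.61 and 0.53. Baat, which conjugates bile acids, rose by 1.80 (SE 0.31, adjusted p = 5.62e-04, limma), and Hsd3b7, of bile acid ring modification, rose by 0.56 (adjusted p = 0.0457, limma). The Hsd3b7 call was the least firm. It was lost without KO library 2 (0.0864), 4 (0.106) or 5 (0.101) and without WT library 1 (0.0654), 2 (0.104) or 3 (0.0856). It was also lost under quantile normalization (0.0715), with no filter (0.0717), with the Rn45s share as a covariate (0.0868), with the replicate block (0.0992) and without the trend (0.0551). Without both WT library 2 and KO library 4, the Hsd3b7 change was 0.38 log2 (adjusted p = 0.193, limma).

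The remaining tested P450s had no call, and of all 22 without one, Cyp2d40, Cyp1b1, Cyp2c68 and Cyp2j9 had an unadjusted p under 0.05. The share of all tested genes at that unadjusted threshold was not counted. Cyp1b1, an aryl hydrocarbon receptor target that hydroxylates oestradiol, read 7.61, 8.13, 7.62, 8.19 and 7.41 log2 in KO and 6.97, 7.24, 7.41 and 7.63 log2 in WT, which overlapped (log2 fold change 0.48, SE 0.19, adjusted p = 0.0996, limma). Cyp2s1 was at 0.57, the orphan P450 Cyp20a1 at 0.50, Cyp2f2, known for naphthalene oxidation in lung, at 0.16 and the vitamin D hydroxylase Cyp2r1 at -0.25 log2. Cyp2r1 had a standard error of 0.86, so its direction is not resolved.

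The 53 genes under the filter include 22 that were listed at 0 in all 9 libraries. These were the adrenal steroid enzymes Cyp11b1 and Cyp11b2, the aromatase Cyp19a1, the retinoic acid hydroxylase Cyp26c1, Cyp1a2, Cyp7a1, Cyp2g1, Cyp2w1, Cyp4x1, Cyp2b9, Cyp2b13, Cyp2b19, Cyp2c37, Cyp2c50, Cyp2c53-ps, Cyp2c66, Cyp2c70, Cyp3a16, Cyp3a41a, Cyp3a41b, Cyp3a44 and Cyp3a57. Another 23 never reached 10 x. In this second set were the steroid enzymes Cyp11a1 (at most 2.1 x), Cyp17a1 (2.9 x) and Cyp21a1 (2.2 x), the retinoic acid hydroxylase Cyp26a1 (3.8 x), the Cyp3a genes Cyp3a11 (4.1 x), Cyp3a13 (7.7 x), Cyp3a25 (6.4 x) and Cyp3a59 (2.0 x), and Cyp2c29 (8.7 x). The others were Cyp2b23, Cyp2c39, Cyp2c54, Cyp2c65, Cyp2j12, Cyp2t4, Cyp2u1, Cyp4f17, Cyp4f37, Cyp4f39, Cyp4f40, Cyp4f41-ps, Cyp8b1 and the antisense gene Cyp4x1os, between 0.9 and 8.6 x at most. A last set of 8 reached 10 x in 1 to 3 libraries: Cyp1a1 (15.5 x), Cyp2b10 (15.4 x), Cyp2c38 (10.3 x), Cyp2d10 (14.1 x), Cyp2d11 (10.4 x), Cyp2d13 (11.2 x), the brain cholesterol hydroxylase Cyp46a1 (16.1 x) and Cyp4f18 (16.9 x).

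The partners of the P450s were described by a list of 11 electron donors and epoxide hydrolases, all tested. Among them 1 rose and 4 fell (median log2 fold change -0.18), where 6.16% and 8.20% of all tested genes did. Por, the reductase that feeds electrons to P450s of the endoplasmic reticulum, read 10.31, 10.12, 10.63, 10.55 and 10.83 log2 in KO and 11.24, 11.23, 11.43 and 11.34 log2 in WT. It was lower in all KO libraries, at -0.82 log2 (SE 0.13, adjusted p = 2.25e-04, limma). Ephx2, the soluble hydrolase that turns the epoxides made by Cyp2c and Cyp2j enzymes into diols, read 11.83, 11.41, 11.53, 11.46 and 11.57 log2 in KO and 12.62, 12.59, 12.67 and 12.60 log2 in WT. It too was lower without overlap, at -1.06 log2 (SE 0.10, adjusted p = 8.62e-07, limma).

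The other calls on this list were less firm. Ephx1, the microsomal epoxide hydrolase, read 7.69, 7.79, 7.97, 7.74 and 8.27 log2 in KO and 7.38, 7.49, 7.20 and 7.24 log2 in WT, a difference of 0.56 log2 (SE 0.15, adjusted p = 0.0196, limma). This was lost without KO library 5 (0.0559), WT library 3 (0.0573) or WT library 4 (0.0563), with the Rn45s share as a covariate (0.0766) and with the replicate block (0.0729). Cyb5a and Cyb5r3 of the cytochrome b5 path fell by 0.38 (adjusted p = 0.0370) and 0.39 (adjusted p = 0.0193, limma). Without KO library 2 (0.0567) or WT library 2 (0.0503) the Cyb5r3 call was lost, as it was under quantile normalization (0.0852), upper-quartile scaling (0.0653), total scaling without Rn45s (0.0811), the replicate block (0.0549) and without the trend (0.0663). The Cyb5a call was lost without KO library 1 (0.0564), 3 (0.0789), 4 (0.0638) or 5 (0.0888) and without WT library 1 (0.102), 2 (0.0777) or 4 (0.0710). It was also lost under quantile normalization, where the log2 fold change was -0.23 (0.118), upper-quartile scaling (0.107), total scaling (0.0655), total scaling without Rn45s (0.104), with no filter (0.0881) and without the trend (0.0807). Leaving out WT library 2 and KO library 4 together ended both the Cyb5a and the Cyb5r3 call. The mitochondrial donors Fdx1, Fdx1l and Fdxr, with Cyb5b, Pgrmc1 and Pgrmc2, had no call.

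**Figure D4:**
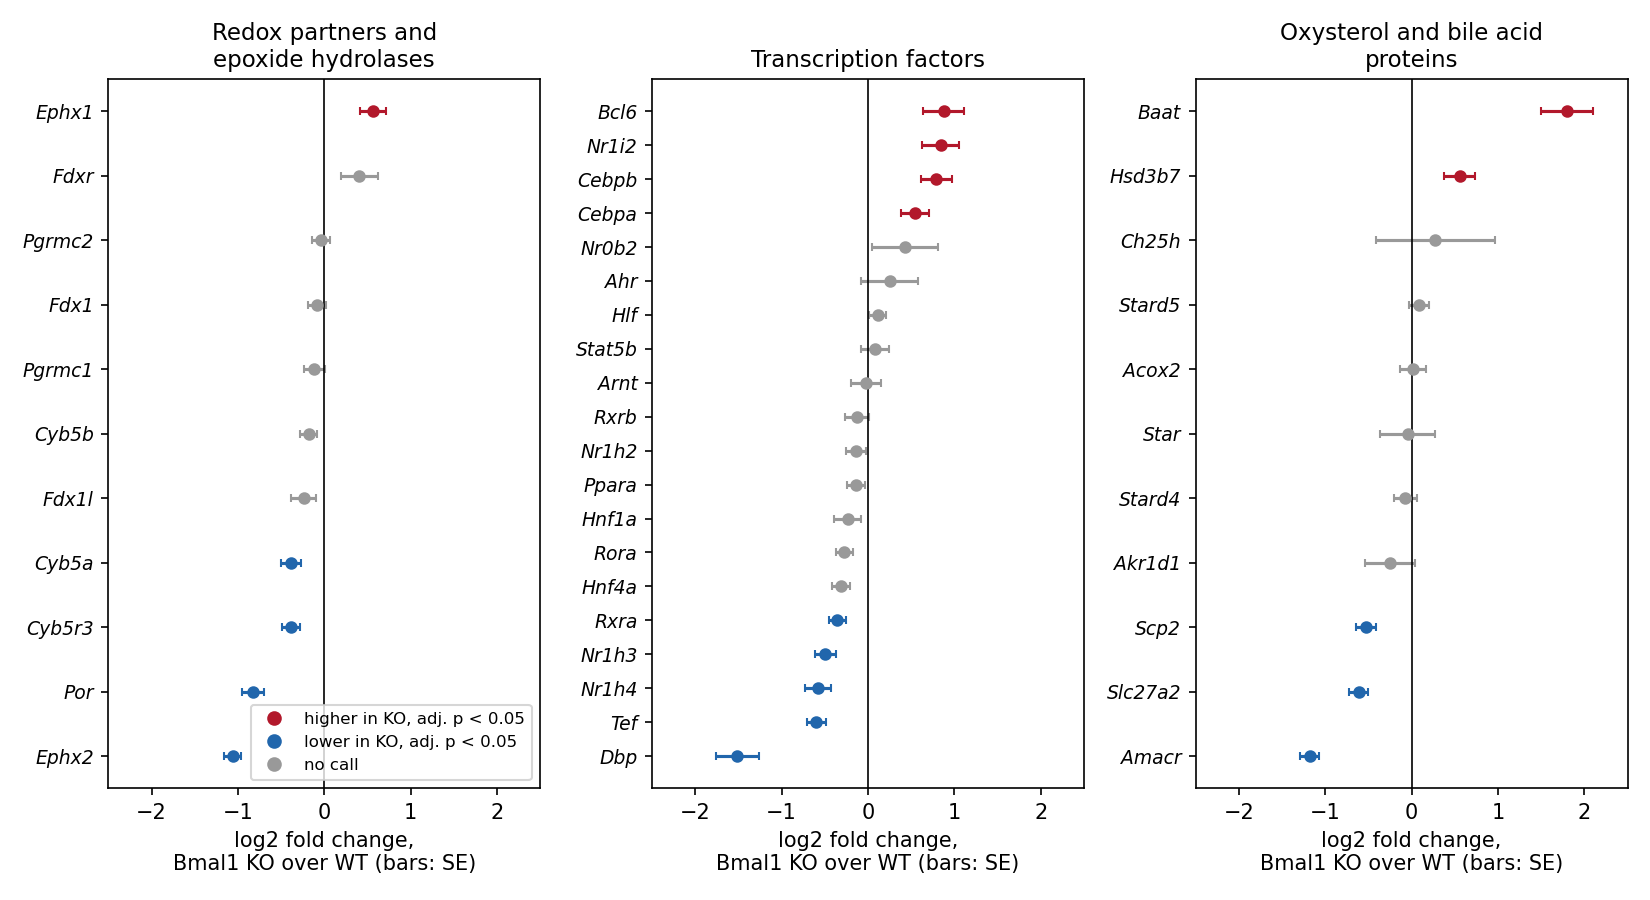
Log2 fold change, KO over WT, with its standard error (limma, 5 KO and 4 WT libraries) for tested electron donors and epoxide hydrolases (left), transcription factors (middle) and oxysterol and bile acid proteins (right). Colour marks an adjusted p under 0.05. Ephx2 at -1.06 is lowest in the left panel, Dbp at -1.51 is lowest in the middle one, and Amacr at -1.18 and Baat at 1.80 bound the right one.

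Of 23 transcription factors and nuclear receptors known to act on P450 genes, 20 were tested. Among these, 4 rose and 5 fell, where 6.16% and 8.20% of all tested genes did. The rises, as log2 fold changes, were Bcl6 (0.88), the pregnane X receptor Nr1i2 (0.85, adjusted p = 0.0126, limma), Cebpb (0.79) and Cebpa (0.54). The falls were the clock output factors Dbp (-1.51) and Tef (-0.60), the bile acid receptor Nr1h4 (-0.58), the oxysterol receptor Nr1h3 (-0.49) and the shared partner Rxra (-0.35). Ahr (0.25, adjusted p = 0.672) and Hnf4a (-0.31, adjusted p = 0.0550, limma) missed the threshold, and the constitutive androstane receptor Nr1i3 was under the filter. Single libraries decided 4 of these calls, by adjusted p. Bcl6 was lost without KO library 4 (0.0523) or WT library 3 (0.0608), Cebpa without KO library 2 (0.0756) or 5 (0.0762) or WT library 4 (0.105). Rxra was lost without KO library 2 (0.0562) or WT library 3 (0.0510) or 4 (0.0540), and Nr1h4 without WT library 1 (0.0669). The Rxra call was also lost under quantile (0.0752), upper-quartile (0.0685), total (0.0773) and total without Rn45s (0.104) scaling, and Nr1h4 under quantile normalization (0.0548), total scaling without Rn45s (0.0507) and no trend (0.0867). With the Rn45s share as a covariate, Bcl6 (0.149), Cebpa (0.0560), Nr1h3 (0.0665), Nr1h4 (0.0880) and Rxra (0.0647) lost their calls. Cebpa was lost with the replicate block (0.0792), and without the trend Bcl6 (0.0880) and Cebpa (0.0602) were lost. Without both WT library 2 and KO library 4, Nr1h3 was lost (0.0661).

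Sites that such factors bind were counted on both strands of the 300-base RefSeq promoters. These were found by symbol for 26 of the 34 tested genes and for 7 of the 12 changed ones. Cyp2c44 was not looked up under its RefSeq name Cyp2c23 and is not among them. CACGTG was found in 1 of the 7 changed genes, in 2 of the 26 (Cyp4v3 and Cyp2j6), and in 8.09% of all 27025 promoters. AGGTCA, the nuclear receptor half-site, was in 0 of 7, in 3 of 26 (Cyp2j5, Cyp2f2 and Cyp2d40) and in 18.1% of all. GCGTG, the core of the aryl hydrocarbon receptor site, was in 2 of 7 (Cyp4v3 and Cyp2j13), in 9 of 26 and in 35.2% of all. Neither TTATGTAA nor TTACGTAA, letters of the Dbp and Tef site, nor a pair of AGGTCA with 1 base between was in any of the 26 windows. Over all promoters their shares were 1.11%, 0.126% and 0.0481%. A match is a description of letters in this window and no evidence of binding.

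Markers of cell types and of sex moved with genotype beside these genes. The marker lists were chosen with earlier results of these data known. Over all tested genes, 6.16% were higher and 8.20% lower in KO at an adjusted p under 0.05. The share of all genes at an unadjusted p under 0.05 was not counted, so unadjusted counts have no baseline here. Among 20 markers of the proximal tubule, 8 were lower in KO and 0 higher in limma (13 lower and 0 higher at an unadjusted p under 0.05), with a summed level of 567762 to 601469 x in KO and 795276 to 995372 x in WT. A single gene, Kap, held 56.9% to 63.9% of that sum in KO and 58.0% to 69.8% in WT and had no call (log2 fold change -0.67, adjusted p = 0.0604, limma). Without Kap the sum was 215339 to 259146 x in KO and 300206 to 334087 x in WT. Of 9 distal nephron markers 4 rose, of 7 endothelial markers 3 rose, of 6 fibroblast markers 2 rose, and of 7 macrophage markers 1 fell. The urothelial list summed to 249 to 889 x in KO and 44.2 to 163 x in WT, with 5 rises among 5 tested of 6 and Krt5 under the filter. Of the 5, Krt15 passed the filter only through KO libraries. Of 6 blood markers 0 passed in limma, 5 were higher at an unadjusted p under 0.05, and they summed to 102928 to 436227 x in KO and 73803 to 196847 x in WT.

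Of 8 genes higher in male mouse kidney 7 fell, with sums of 344317 to 395905 x in KO and 531744 to 760176 x in WT, and this list holds Cyp2j13 itself. Kap, the gene of the 8 without a call, was again most of the sum, and without it the sum was 11401 to 17657 x in KO and 65010 to 79143 x in WT. All 5 genes higher in female kidney rose, with sums of 10041 to 14302 x in KO and 1841 to 2409 x in WT. Both of these short lists were chosen with earlier results of these data known. Over all tested genes, 6.16% rose and 8.20% fell. The labels used here give no sex. Hepatocyte markers had 2 rises and 1 fall among 7 tested of 12 and summed to 4447 to 8124 x in KO and 5446 to 8707 x in WT, with Tat at 0. Of 9 adrenal cortex markers 2 were tested, 0 passed in limma and 1 was higher at an unadjusted p under 0.05, and the list's defining genes Cyp11b1, Cyp11b2 and Nr5a1 were at 0 in all libraries. No share of all genes was counted at that unadjusted threshold. The part of these shifts in the P450 results was not tested.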

How the data were processed

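Kidney RNA was extracted with Trizol and 500 ng per library entered Lexogen QuantSeq library preparation, per the labels' protocols. Bowtie2, bedtools and the build mm10 are named in the submitters' processing notes. The normalization, annotation, strand setting and treatment of shared reads were not given in the sources used here. The authors deposited 1 table per library of log2 values, log2(x + 1), for 23282 symbols; x is an adjusted count, as its values show, and not a raw count. Depth being unknown, no counting interval was given.

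The 13481 genes with x of at least 10 in at least 4 libraries were fitted on the deposited log2 values with limma 3.58.1 in R 4.3.3, with a mean-variance trend and no term but genotype. Tests were two-sided, and p-values were adjusted over all of these genes by Benjamini-Hochberg, with a threshold of 0.05. A difference of log2(x + 1) understates the change of low genes. Fold values given as such are ratios of the fitted log2 means, while means ± SD of x are arithmetic. The fit was tested on simulated data. Groups came from the genotype labels. Alternatives were other scalings, filters and pseudocounts, the Rn45s share as a covariate, a replicate block, no trend and libraries left out.

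The members and lists were chosen with earlier results of these data known. Of the transcription factor list, 2 genes are not reported here. All members are named. Changed members are given with all 9 values. Genes of the donor, transcription factor and bile acid lists that passed are named with their change, and markers are given as counts and sums. Positions come from GENCODE M21 on GRCm38, which is mm10, for 86 of 87 members, and promoters from RefSeq on GRCm38.p6 for 66 of 87. Promoters were looked up by the symbols given here, so Cyp2c44 was not sought as Cyp2c23. Protein sequences and a genome were not used here. Names ending in -ps are pseudogenes.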

Additional observations from a re-analysis of the deposited data

Results flagged for a closer look

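Among the 34 tested P450 genes, each genotype's libraries were examined for a single library far from the others relative to the group's range (Dixon's criterion at 95%). This marked 6 of 68 groups, and chance marks about 1 in 20. KO library 2 stood low for Cyp2c55, at 0.86 log2 against 3.71 to 4.64 in the other KO libraries, and WT library 4 stood high for it, at 2.07 log2. KO library 2 also stood low for Cyp2d34, at 3.35 log2, and WT library 2 stood high for that gene, at 4.65 log2. WT library 1 stood high for Cyp2c44, at 8.68 log2, which is still below the lowest KO library at 10.32. WT library 4 stood low for Cyp39a1, at 4.65 log2. None of the marked groups of Cyp2d34 and Cyp39a1 belongs to a gene past the threshold.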

How the results depend on the processing

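Over 20 alternatives, none of the 12 changed P450 genes reversed direction. Cyp2c44, Cyp2d22, Cyp2d26, Cyp2e1, Cyp2j13, Cyp4b1-ps2, Por and Ephx2 kept their calls in all 20. Cyp7b1 lost its call in 2, Cyp27a1 and Cyp2d9 in 3, Cyp4v3 in 4, Cyp2d12 in 8 and Cyp2c55 in 11 of 19, Ephx1 in 5, Cyb5r3 in 8 and Cyb5a in 14.

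With the Rn45s share as a covariate, 1157 genes changed in place of 1937, and 7 P450 genes in place of 12, 4 higher and 3 lower. There, Cyp27a1 (adjusted p = 0.157), Cyp7b1 (0.109), Cyp2d9, Cyp2d12, Cyp2c55 and Cyp4v3 were lost. Fitting limma without the trend left 3 lower. Without both WT library 2 and KO library 4, 3 were higher. Of the 11 donors and hydrolases, 3 changed in place of 5 under quantile normalization, upper-quartile scaling, total scaling without Rn45s, the replicate block, no trend and without both libraries. Leaving out 1 library at a time gave 1426 to 2277 genes, 10 to 13 P450 genes (4 to 7 higher, 5 to 6 lower) and 3 to 4 of the 11. The cause was not tested.

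Deviations of each tested gene from its genotype mean were correlated between KO and WT libraries. Same-numbered libraries gave 0.151, 0.001, -0.007 and 0.041, and the other pairs lay between -0.161 and 0.088. The numbers were not taken as pairs, although 0.151, for the libraries numbered 1, was the highest value. The replicate block over replicates 1 to 4 gave 1739 changed genes, and 6 higher and 6 lower P450 genes, of which 11 were among the 12 main ones: Cyp2c55 was lost (adjusted p = 0.0927) and Cyp1b1 gained. It also ended the calls of Ephx1 (0.0729), Cyb5r3 (0.0549), Hsd3b7 (0.0992) and Cebpa (0.0792). Raw depth is unknown, so for genes near 0 no detection limit can be given.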
